A study of Homo sapiens with 32 samples.

Results

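The mRNAs described here encode the proteins of the cytoplasmic ribosome and 5 partners of translation elongation, in Hep3B cells with and without a working NAT10. The members were taken by symbol from the gene annotation: every protein-coding RPL or RPS gene with a number, RPLP0, RPLP1, RPLP2 and RPSA, together with EEF1A1, EEF2, EEF1G, EEF1B2 and TPT1, leaving out pseudogenes, the RPS6K kinases and symbols ending in L1. This gave 89 genes of 19689 protein-coding genes, of which 50 encode large-subunit proteins, 34 encode small-subunit proteins and 5 are the elongation genes and TPT1. Together they hold 126465 exonic positions.

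Hep3B is an established human hepatocellular carcinoma cell line. NAT10 is the enzyme that acetylates cytidine in RNA to N4-acetylcytidine (ac4C), and it has an RNA helicase domain and an acetyltransferase (GNAT) domain. The tested lines were Wildtype (the parental line, with untagged NAT10), FKBP (the line whose own NAT10 carries the FKBP degradation tag), NAT10(-) (FKBP cells given a control plasmid), and FKBP cells given NAT10 with a helicase mutation (K290A or E389L) or a GNAT mutation (H537A or G641E). The reference line was NAT10-WT, FKBP cells given unmutated NAT10. All cells, the parental line included, received 100 nM dTAGV1 for 24 h, which removes tagged NAT10. The add-back genes were carried by a lentivirus under an EF1A promoter, and the transduced cells were selected with blasticidin, so their NAT10 is not under its own control. Each RNA was split into a fraction treated with sodium cyanoborohydride (NaCNBH3), which reduces ac4C so that reverse transcription with 2-amino-dATP reads it as T, and a mock fraction. There were 32 libraries from 16 RNA samples, 2 for each of the 8 lines, and the labels give each a replicate number.

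Ribosomal proteins are made in near-equal numbers, 1 copy of most per ribosome, and their mRNAs are among the most abundant of a growing cell. Most of these mRNAs, and those of the elongation factors, begin with a terminal oligopyrimidine tract, a C at the cap followed by an unbroken run of C and T, through which mTOR signalling and LARP1 control their translation together. EEF1A1 brings aminoacyl-tRNA to the ribosome, EEF1B2 and EEF1G belong to the complex that recharges it with GTP, EEF2 moves the ribosome along the mRNA, and TPT1 is an abundant partner of this machinery.

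The starts of 8 members give examples of this feature and of its absence. They are the first 20 bases from the RefSeq start (GRCh38.p14), 5′ to 3′ on the gene strand, with the leading run of C and T that opens with a C in capitals.
RPS27, chr1:153990762-153990781, plus strand: CCTTTCCggcggtgacgacc
RPS18, chr6:33272075-33272094, plus strand: CTCTCTTCCacaggaggcct
RPLP0, chr12:120201092-120201111, minus strand: CCTTCTCTCgccaggcgtcc
EEF1A1, chr6:73521013-73521032, minus strand: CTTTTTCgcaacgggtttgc
EEF2, chr19:3985444-3985463, minus strand: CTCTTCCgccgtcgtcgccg
TPT1, chr13:45341164-45341183, minus strand: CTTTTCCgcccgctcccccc
RPS15, chr19:1438396-1438415, plus strand: Caaagcgatctcttctgagg
RPL10L, chr14:46651762-46651781, minus strand: gagcgcattttgacttcgag
Of the 72 members matched in RefSeq, 51 (70.8%) had a start with C followed by at least 4 further C or T, read on the gene strand only and taking the start with the longest run where a gene had several. The same start was found in 47 of 336 other genes of the depth comparison (14%) and in 1404 of 27305 promoters in all (5.14%). RPL10L, a retrogene copy of RPL10 known for its role in the testis, has no such run. EEF1G and RPL9, whose starts are not among the 8 given, have none at the RefSeq start either. For RPS29 the RefSeq start read here (chr14:49598691-49598710) has none and is counted so. It lies outside the RPS29 transcript whose depth was measured (chr14:49583577-49586380, minus strand), so the start of that transcript was not examined.

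The libraries held 400119 to 3797803 listed positions, each with at least 30 reads. Nuclear mRNA made up 1.03% to 15.3% of base calls, with the highest share in K290A replicate 1. Members took 9.64% to 27.9% of the mRNA base calls. Only listed positions enter these shares, and the deepest position had 20029 to 20049 reads in every library. The lowest member share was in the library with the most listed positions and the highest in that with the fewest. The shares thus describe listed base calls and not the RNA composition of the cells. The liver cell markers ALB, APOA1, SERPINA1 and TF were listed in all 32 libraries and AFP and TTR in 25 each, while the 3 blood cell, 2 endothelial and 3 fibroblast markers had no listed position. The NAT10 transcript had 69.6% to 76.2% of its exonic positions listed in G641E libraries, 15.5% to 69.4% in those of H537A, 36.3% to 78.7% in those of K290A and 13% to 27.2% in those of NAT10-WT. It had no listed position in Wildtype, FKBP or NAT10(-), so that the untagged gene of Wildtype was also under 30 reads and only add-back transcripts are checked in this way. None of 3973 positions was listed in the 4 libraries labelled E389L either. Their NAT10 reads thus do not bear out that label, and these samples are called E389L-labelled here.

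Member mRNAs were read mainly over their coding sequence. At 30 reads, 32.9% to 45.6% of all exonic positions of the members were listed (median 39.0%). The coding part was listed over 73.7% to 92.8%, the 5′ untranslated part over 62.7% to 80.5% and the 3′ untranslated part over 1.74% to 10.0%. The other genes of the depth comparison were listed over 16.5% to 86.7% of their exons, a wider range than that of the members. In 60 of the 85 members with a listed position, at least 90% of the coding sequence was listed on average.

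Members with long annotated 3′ ends had low totals. RPL37, a large-subunit protein, had a mean of 4.69% of its 7573 exonic positions listed but 100.0% of its coding positions. RPL14 had 8.81% of all exonic positions and 91.7% of coding positions listed. EEF1A1 had 48.5% of all positions and 100% of coding positions, whereas EEF2, which has a short 3′ end, had 99.1% of all positions listed. These members were thus well covered wherever the annotated transcript was short or coding.

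A few members were not seen or hardly seen. RPL10L and RPL3L, copies of RPL10 and RPL3 with restricted expression in testis and in muscle, had no listed position, and neither did the 2 members on chromosome Y. RPL39L had 0% of its coding sequence listed and RPS27L had 35.2%. The other member of this kind in the depth comparison, RPL36AL, had 44.7% of its coding sequence listed and the lowest depth of those compared. In all, 81 of 89 members were listed in every library.

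To compare members with each other, mean depth over all exonic positions was divided by that of ACTB (cytoskeletal actin) in the same library, with unlisted positions set to 15 reads. Of the 89 members, 69 had at least 25% of their exons listed on average and entered the comparison, and 20 did not. Their median depth relative to ACTB was 0.221, against 0.0653 in the 420 other genes that passed the same filter. On average over libraries no member exceeded ACTB, 7 were above 0.5 and 5 were below 0.1.

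The highest members named here were small-subunit proteins. RPS27 had a mean of 0.847 relative to ACTB (range 0.373 to 1.23 over 32 libraries). Among those below it, RPS15 was at 0.630, RPS18 at 0.608 and RPS2 at 0.576. RPS15, which lacks the pyrimidine run at its RefSeq start, was thus between RPS27 and RPS18, which have it. The lowest members compared were RPL36AL at 0.0542, RPS3 at 0.0746, RPS4X at 0.0866, RPL35A at 0.0944 and RPL10 at 0.0960. The small-subunit median was 0.283 (26 members) and the large-subunit median 0.213 (39 members). The range of RPS27 overlapped those of RPS15, RPS18 and RPS2, so these ranks are not fixed by the libraries.

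**Figure D1:**
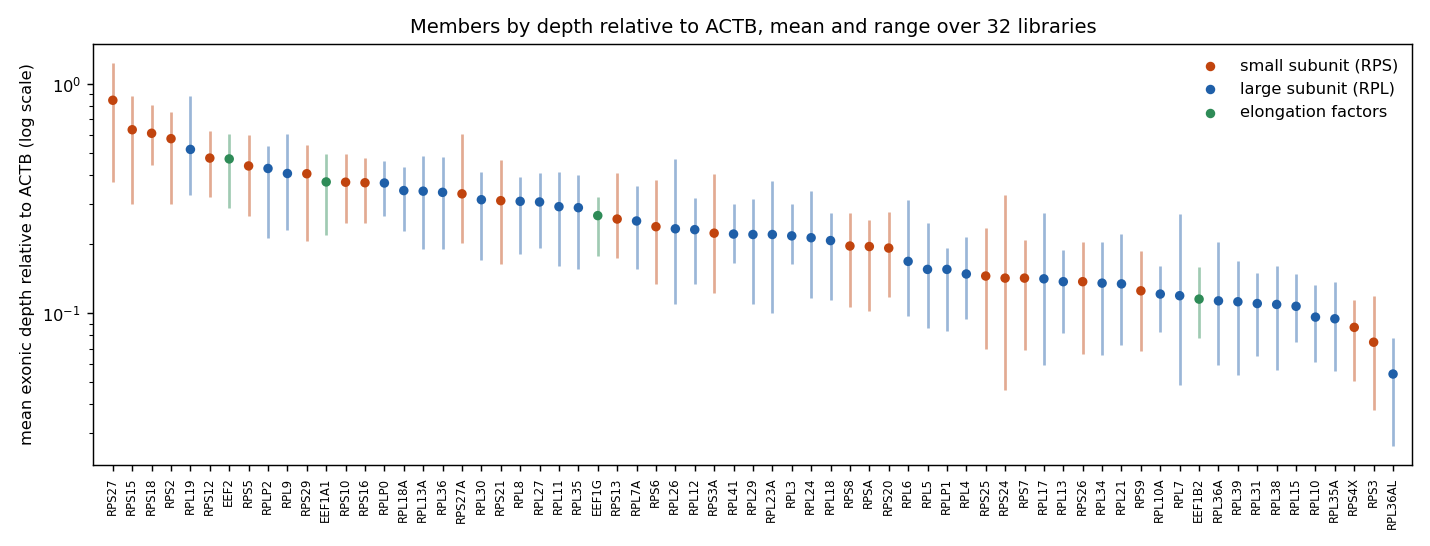
Mean exonic depth relative to ACTB in the same library (log axis) for members compared, ordered from high to low, without those not reported here. Points are means and bars the range over 32 libraries, and RPS27 (0.847) is first while RPL36AL (0.0542) is last.

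Over coding positions alone, the order changed for members with long 3′ ends. RPS27 stayed first at 0.947 relative to the coding depth of ACTB. EEF1A1 was at 0.703 and RPL37 at 0.651, with RPS15 at 0.618 and RPL28 at 0.600. The median of the 84 members compared in this way was 0.259. The depth of a member thus depended on how much of its annotated transcript is 3′ untranslated. RPS3 went from 0.0746 over all exons to 0.128 over coding positions, and RPL10 from 0.0960 to 0.197. Both stayed below the coding median.

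Processed pseudogenes share most of their sequence with these mRNAs, so the depth of a member is also open to how reads that fit both were placed. The members had 0 to 133 annotated pseudogenes (median 13), with 133 for RPL21. Pseudogene positions held 3.29% to 13.9% as many base calls as the members, the highest in K290A replicate 1. Across 85 members the number of pseudogenes and the coding share listed had a Spearman rho of -0.129, a description over genes that share libraries.

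The stalk proteins and RPSA lay inside the range of the other members. RPLP0, which anchors the acidic stalk of the large subunit where elongation factors bind, had a mean depth relative to ACTB of 0.369. RPLP2 was at 0.427 and RPLP1 at 0.155, although the proteins form pairs in the stalk. Of the 1174 exonic positions of RPLP1, 701 are 3′ untranslated. Over coding positions RPLP2 was at 0.418 and RPLP1 at 0.231, and over positions listed in all libraries at 0.518 and 0.343. RPSA, a small-subunit protein also known as a laminin receptor, was at 0.195.

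Among the elongation genes, EEF2 had a depth relative to ACTB of 0.470 over all exons, EEF1A1 0.373, EEF1G 0.266 and EEF1B2 0.115. The order of EEF2 and EEF1A1 turned over coding positions, where EEF2 was at 0.449 and EEF1A1 at 0.703, and over positions listed in all libraries, where EEF2 was at 0.476 and EEF1A1 at 0.748. TPT1 had a depth of 0.0458 over its 4414 positions, of which 12.3% were listed, and was not compared. By line, EEF2 was at 0.291 and 0.289 in Wildtype, 0.497 and 0.477 in FKBP, 0.499 and 0.506 in NAT10(-), 0.397 and 0.566 in K290A, 0.439 and 0.462 in E389L-labelled, 0.477 and 0.485 in H537A, 0.573 and 0.582 in G641E, and 0.487 and 0.490 in NAT10-WT samples. Both Wildtype samples were below every other sample of EEF2, and both G641E samples were above every other sample.

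EEF1A1 differed more between replicates than between lines. Its depth relative to ACTB was 0.368 and 0.331 in Wildtype, 0.226 and 0.428 in FKBP, 0.309 and 0.464 in NAT10(-), 0.332 and 0.445 in K290A, 0.353 and 0.432 in E389L-labelled, 0.365 and 0.434 in H537A, 0.309 and 0.390 in G641E and 0.333 and 0.453 in NAT10-WT samples. The lines overlapped, and replicate 2 was the higher sample in each line but Wildtype. EEF1G was at 0.179 and 0.197 in Wildtype samples, against 0.280 and 0.310 in NAT10-WT samples, and between 0.205 and 0.301 in the other lines. EEF1B2 was between 0.0829 and 0.156 in the 7 tested lines, against 0.10 and 0.141 in NAT10-WT samples. Wildtype was thus the lowest line for EEF2 and EEF1G, without overlap with any other line.

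The same held for RPSA and RPLP0. RPSA was at 0.107 and 0.125 in Wildtype samples, against 0.164 and 0.216 in NAT10-WT samples, and RPLP0 at 0.265 and 0.267 in Wildtype samples, against 0.300 and 0.373 in NAT10-WT samples. RPLP1 and RPLP2 were lowest in K290A. RPLP1 was at 0.0852 and 0.123 in K290A samples, against 0.170 and 0.188 in NAT10-WT samples. RPLP2 was at 0.216 and 0.370 in K290A samples, against 0.453 in both NAT10-WT samples, and the FKBP samples, at 0.334 and 0.386, overlapped K290A. RPS27 was at 0.386 and 0.929 in K290A samples, against 1.03 and 1.02 in NAT10-WT samples, so that its low K290A mean rested on replicate 1.

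As a group, members were lowest relative to ACTB in Wildtype. The median member was at 0.152 ± 0.00697 in Wildtype, 0.206 ± 0.0238 in FKBP, 0.239 ± 0.0526 in NAT10(-), 0.230 ± 0.0793 in K290A, 0.231 ± 0.0260 in E389L-labelled, 0.254 ± 0.0141 in H537A and 0.225 ± 0.0279 in G641E, against 0.244 ± 0.0230 in NAT10-WT (SD, n = 2 RNA samples each). Both Wildtype samples (0.157 and 0.147) were below all others. The remaining lines overlapped NAT10-WT (0.228 and 0.260) except FKBP, whose samples were at 0.189 and 0.223. With 2 samples against 2, an exact two-sided permutation test cannot go below p = 0.333, so these are descriptions. Depth is relative, and fewer member mRNAs, more ACTB mRNA and a change in the cells that hold them cannot be told apart.

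Part of such a difference lies in which positions were listed, so the ratio was also taken over the 36884 member positions listed in all 32 libraries. The median member was then at 0.252 ± 0.00937 in Wildtype, 0.334 ± 0.0321 in FKBP, 0.328 ± 0.108 in K290A and 0.353 ± 0.0223 in G641E, against 0.390 ± 0.0374 in NAT10-WT. K290A replicate 1, at 0.251, then lay between the Wildtype samples (0.259 and 0.245). Other genes moved too, with medians of 0.214 in Wildtype, 0.198 in FKBP and 0.180 in K290A, against 0.285 in NAT10-WT. Relative to the median gene, the Wildtype samples had a median member of 2.62 and 2.60, against 3.12 and 2.99 in NAT10-WT samples.

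The covered share of member exons was 44.1% ± 1.99 in K290A, 42.3% ± 1.64 in FKBP, 39.3% ± 4.69 in NAT10(-), 38.5% ± 1.43 in G641E, 38.0% ± 1.40 in Wildtype, 38.0% ± 7.15 in E389L-labelled and 35.4% ± 2.46 in H537A, against 37.8% ± 2.71 in NAT10-WT (SD, n = 2 each). The E389L-labelled samples alone, at 43.1% and 33.0%, spanned nearly the whole range. K290A and FKBP lay above both NAT10-WT samples (39.7% and 35.9%), and K290A replicate 1 also had the most mRNA base calls. ACTB depth averaged 1329 in K290A and 779 in FKBP, against 356 in NAT10-WT, and the part of depth in this difference was not tested.

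**Figure D2:**
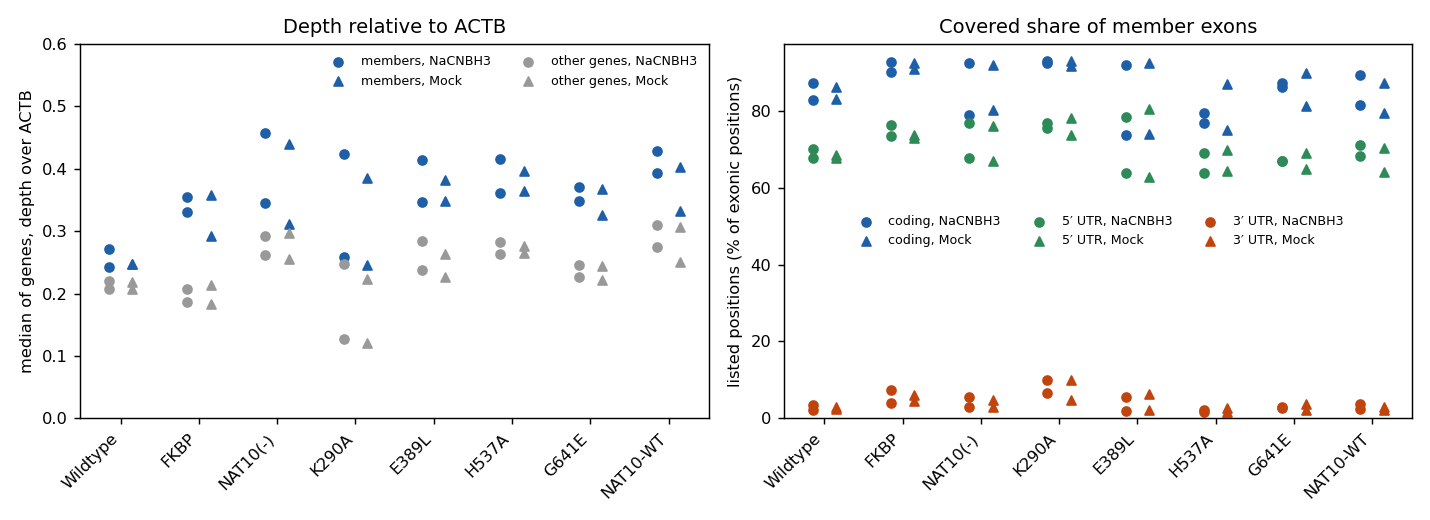
Left, median depth relative to ACTB over positions listed in all 32 libraries for 81 members (blue) and 193 other genes (grey); right, share of member exonic positions listed, by transcript part. Each point is a library (circles NaCNBH3, triangles mock). In the left panel members have their lowest line mean in Wildtype (0.252), with K290A replicate 1 (0.251) between the 2 Wildtype samples. In the right panel coding sequence lies between 73.7% and 92.8%.

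To find members whose depth differed between lines, log2 mean depth was scaled to the median gene of each library and compared with limma over 489 genes and 16 RNA samples, with Benjamini-Hochberg adjustment over all 489. All comparisons of a line use the same 2 NAT10-WT samples. K290A against NAT10-WT gave the most calls among members: 6 were higher and 4 lower of 69. Of all genes tested 31.5% were called (10.4% higher and 21.1% lower), so the member counts were below the background in the lower direction and near it in the higher direction. Called higher were RPL7, RPS3A, RPL39, RPS7, RPL24 and RPLP0, and called lower were RPS25, RPS29, RPS3 and RPL38. The median member change was 0.07 on the log2 scale, against -0.08 over all genes tested.

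Of the members higher in K290A, RPL7, a large-subunit protein with 61 annotated pseudogenes, was at 2.92 and 2.99 times the median gene in K290A samples, against 1.43 and 1.20 in NAT10-WT samples. The samples did not overlap, and the change was 1.17 (SE 0.33, limma adjusted p = 0.0146). RPS3A, a small-subunit protein with 53 pseudogenes, was at 4.42 and 4.52 times the median gene in K290A samples, against 2.23 and 3.02 in NAT10-WT samples (log2 change 0.78, limma adjusted p = 0.0268). RPL39, one of the shortest ribosomal proteins, lying in the exit tunnel, was at 1.97 and 2.06 in K290A samples, against 1.09 and 1.53 in NAT10-WT samples (log2 change 0.64, limma adjusted p = 0.0264). Both K290A samples were above both NAT10-WT samples for each of these members. The changes of RPS7 (0.59), RPL24 (0.55) and RPLP0 (0.51) were smaller.

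Of the members lower in K290A, RPS25, a small-subunit protein used by viral internal ribosome entry sites, was at 1.51 and 1.41 times the median gene in K290A samples, against 2.80 and 2.20 in NAT10-WT samples. Its change was -0.76 (SE 0.25, limma adjusted p = 0.0310). RPS29, a zinc-binding small-subunit protein, was at 4.10 and 3.39 in K290A samples, against 6.57 and 5.85 in NAT10-WT samples (log2 change -0.73, limma adjusted p = 0.00925). RPS3, which lines the mRNA entry, was at 0.734 and 0.740 in K290A samples, against 0.988 and 1.31 in NAT10-WT samples (log2 change -0.63, limma adjusted p = 0.0283). RPL38, a short large-subunit protein, was lower by a log2 change of -0.56 (limma adjusted p = 0.0126). Both K290A samples were below both NAT10-WT samples for each of the 3 small-subunit members, and members of the same subunit were called in opposite directions.

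The K290A result depended on scaling and on single samples. Over positions listed in all 32 libraries, 18 members were called higher and 2 lower of 81 tested, where 12.4% of all genes tested were called higher and 24.1% lower. Scaled to ACTB instead, 0 were higher and 4 lower (RPS25, RPS29, RPLP1 and RPL38), and the median of all genes moved to -0.39 with that of members at -0.24. With both changes, 0 were higher and 9 lower, with medians of -0.58 for all genes and -0.30 for members. The share of all genes called with ACTB is not given here, so these counts are not set against a background. RPL7 stayed positive and was not called with ACTB (0.86 on the log2 scale, limma adjusted p = 0.201), whereas RPS25 and RPS29 were called lower under all 4 scalings. Setting unlisted positions to 0 left no member called. Leaving out K290A replicate 1, the sample with the most mRNA, left 1 member called (RPS29), leaving out K290A replicate 2 or NAT10-WT replicate 1 left 3 each, and leaving out NAT10-WT replicate 2 left 4. With the replicate number as a batch term 10 members were called, with RPS7 lost (limma adjusted p = 0.0520) and RPLP1 called lower. Pseudogene positions held 12.8% to 13.9% as many base calls as members in K290A replicate 1, against 3.67% to 5.77% in NAT10-WT libraries. K290A replicate 2 was at 4.96% to 5.51%, inside that range, and FKBP replicate 2 at 12.1% to 12.8%. Only positions with at least 30 reads are listed, so these shares also depend on depth. The part of pseudogenes in these changes was not tested.

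**Figure D3:**
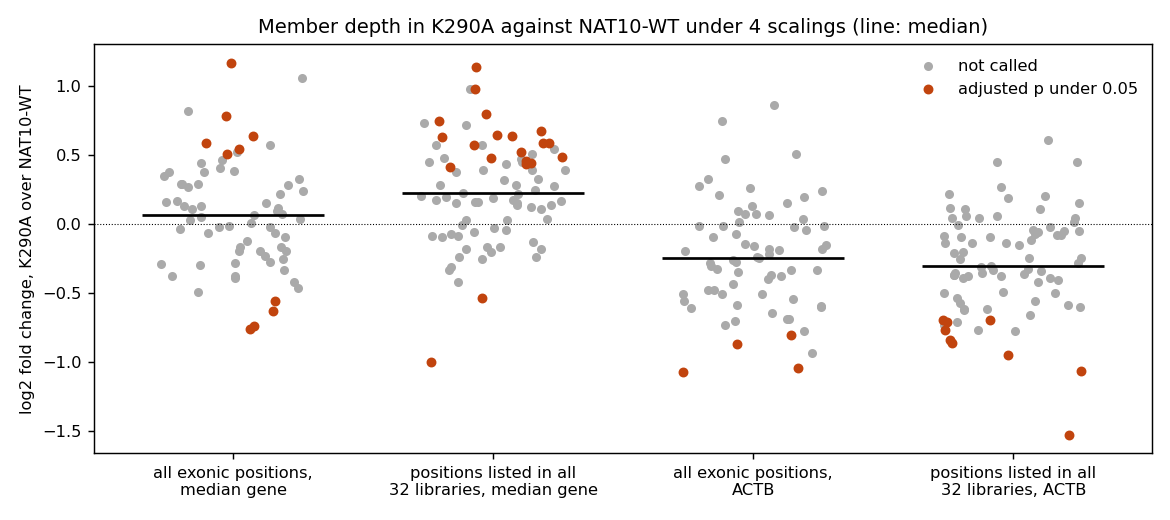
Log2 fold change of K290A over NAT10-WT for each member under 4 scalings, with called members in red and the median as a line. The median is 0.07 and 0.23 when scaled to the median gene and -0.24 and -0.30 when scaled to ACTB.

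In Wildtype against NAT10-WT, 1 member was called lower and 0 higher, where 4.91% of all genes tested were called (4.09% higher and 0.818% lower). The called member was RPL23A, a large-subunit protein at the tunnel exit with 91 annotated pseudogenes. It was at 2.02 and 1.86 times the median gene in Wildtype samples, against 3.55 and 2.96 in NAT10-WT samples. The samples did not overlap, with a change of -0.74 (SE 0.16, limma adjusted p = 0.0242). Of the 69 members, 14 had a positive change, and the median was -0.25, against -0.08 over all genes tested. RPL23A was no longer called without Wildtype replicate 1 (limma adjusted p = 0.103), without Wildtype replicate 2 (0.211), without NAT10-WT replicate 1 (0.175) or when scaled to ACTB (0.0716), though it stayed lower in each.

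In FKBP against NAT10-WT, 0 of 69 members were called, where 3.68% of all genes tested were called (0.818% higher and 2.86% lower), and 6 members had an unadjusted p under 0.05. The smallest p-values belonged to RPL38 (log2 change -0.46, limma adjusted p = 0.0941) and RPS25 (log2 change -0.74, limma adjusted p = 0.0967). Over positions listed in all 32 libraries, 1 member, RPLP0, was called higher (log2 change 0.70, limma adjusted p = 0.0417). RPLP0 was then at 1.96 and 1.71 times the median gene in FKBP samples, against 1.10 and 1.17 in NAT10-WT samples.

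In NAT10(-) against NAT10-WT, the comparison that sets absence of add-back NAT10 against its presence, 0 members were called, as for all genes tested (0%). There were 2 members with an unadjusted p under 0.05, RPLP0 (log2 change 0.41, limma adjusted p = 0.993) and RPSA (log2 change 0.39, limma adjusted p = 0.993). Member changes ranged from -0.36 to 0.43, with a median standard error of 0.20.

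The other mutants gave no member call either. In E389L-labelled against NAT10-WT samples 0% of genes were called, and RPS9 (log2 change -0.58, limma adjusted p = 0.902) and RPL23A (-0.35, adjusted p = 0.999) had the smallest p-values, with 1 member at an unadjusted p under 0.05. In H537A against NAT10-WT 0% of genes were called, and RPL29 (log2 change 0.27) and RPS18 (-0.22) had the smallest p-values (limma adjusted p = 0.994 for both), with 0 members at an unadjusted p under 0.05. In G641E against NAT10-WT 0.818% of genes were called (0.613% higher and 0.204% lower), and RPL11 (log2 change -0.66, limma adjusted p = 0.205) and RPLP0 (0.43, adjusted p = 0.261) had the smallest p-values, with 3 members at an unadjusted p under 0.05. The smallest member change called in K290A, from the same fit and also with 2 samples a line, was 0.51. That is no detection limit for these lines, where larger changes (-0.58 for RPS9 and -0.66 for RPL11) were not called. Changes of this size and smaller ones may thus have been missed.

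To set the 2 domains against each other, the helicase mutants (K290A and E389L-labelled) were compared with the GNAT mutants (H537A and G641E). Of 69 members, 1 was called lower and 0 higher, where 16.6% of all genes tested were called (4.70% higher and 11.9% lower). The called member was RPS9, a small-subunit protein that shapes decoding accuracy. It was at 1.37 and 1.61 times the median gene in K290A and 1.32 and 1.12 in E389L-labelled samples, against 2.04 and 1.77 in H537A and 2.17 and 2.05 in G641E samples. The 4 helicase samples were below the 4 GNAT samples, with a change of -0.58 (SE 0.14, limma adjusted p = 0.0103). NAT10-WT samples were at 1.97 and 1.67. With the replicate number as a batch term RPS29 was called lower as well (log2 change -0.40, limma adjusted p = 0.0170). RPS9 was not called with mock libraries alone (log2 change -0.42, limma adjusted p = 0.113), with unlisted positions at 29 reads (-0.23, adjusted p = 0.239), or with positions listed in all 32 libraries scaled to ACTB (-0.69, adjusted p = 0.0601).

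Member depth was close in the 2 fractions. In the 16 pairs of fractions, 0 of 69 members were called, as for all genes tested (0%), and 14 members had an unadjusted p under 0.05. The smallest p-values belonged to RPL36A (log2 change 0.09, limma adjusted p = 0.157) and RPL5 (0.10, adjusted p = 0.157), and all member changes lay between -0.08 and 0.13. The covered share was higher in the NaCNBH3 fraction in 8 of 16 pairs and the median ratio to ACTB in 10 of 16. Over positions listed in all 32 libraries, RPL36A was called higher (log2 change 0.11, limma adjusted p = 0.0389). With scaling to ACTB as well 7 members were called higher, given here without the share of all genes called.

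Other mRNAs of the pathway were covered less. Of 18 further translation mRNAs, 8 could be compared, and NPM1 (a nucleolar chaperone) was called higher in K290A than in NAT10-WT (log2 change 1.62, limma adjusted p = 0.00824), with none called in the other comparisons. Among them RACK1, a scaffold on the small subunit, was at 0.293 relative to ACTB, within the range of the ribosomal proteins. Of 15 ribosome assembly mRNAs, 4 could be compared, and FBL (the nucleolar RNA methyltransferase fibrillarin) was called lower in K290A (log2 change -0.50, limma adjusted p = 0.0332). For contrast, 10 of 15 liver secretory mRNAs could be compared, with 1 higher (FGA) and 5 lower in K290A, among them AHSG (log2 change -1.87, limma adjusted p = 5.20e-05). Of 10 glycolysis mRNAs, 7 could be compared and PKM was called higher in Wildtype (log2 change 1.36, limma adjusted p = 1.88e-04).

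To look for ac4C in these mRNAs, T reads at reference cytosines were compared between the NaCNBH3 and mock fractions. Members hold 28645 cytosines, of which 14338 were listed in some library and 9744 in all. There are 1077 in CCG, the triplet in which NAT10 is known to acetylate the middle base of ribosomal and transfer RNA, and 782 of these were listed in some library. Fisher's exact test was applied where a library had at least 5 mismatch reads and over 1% mismatch, and a site was called when each replicate passed 0.05 after adjustment, in the same direction. In each line, 0 member cytosines were called higher, out of 21 tested in Wildtype, 29 in FKBP, 21 in NAT10(-), 36 in K290A, 15 in E389L-labelled, 16 in H537A, 13 in G641E and 22 in NAT10-WT. Over the cytosines of all RNAs tested, ribosomal and transfer RNA included, 8.77% were called in Wildtype, 4.70% in FKBP, 3.68% in NAT10(-), 3.74% in K290A, 3.70% in E389L-labelled, 4.42% in H537A, 3.70% in G641E and 10.9% in NAT10-WT. So few member cytosines reach 5 mismatch reads that sites of low T share could not be detected at this depth.

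Among the tested member cytosines with the greatest mean difference in NAT10-WT were those in EEF2, RPL13, RPS16 and RPL9. Those in RPL13 and RPS16 are in CCG, and each is given with 27 bases of GRCh38 read 5′ to 3′ on the gene strand, the CCG in capitals and the tested cytosine in its middle.
RPS16, chr19:39433688-39433714, minus strand: agacatccgtgtCCGtgtaaagggtgg
RPL13, chr16:89562940-89562966, plus strand: cttcgctagtctCCGtatggcccgtgc
Both lie in coding sequence, RPS16 in exon 3 and RPL13 in exon 6, and in both the cytosine is the first base of a CGT codon, codon 71 of RPS16 and codon 183 of RPL13. RPS16 is a small-subunit protein whose tail reaches the decoding site, and RPL13 is a large-subunit protein.

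At the RPS16 cytosine (chr19, position 39433701), T was read in 14 of 244 and 5 of 162 reads in NAT10-WT NaCNBH3 libraries, against 0 of 238 and 0 of 140 in their mock libraries. Summed, this is 4.68% (exact Clopper-Pearson interval 2.84% to 7.21%) after NaCNBH3, against 0% of 378 mock reads (upper bound 0.971%). The difference passed Fisher's exact test in replicate 1 (adjusted p = 0.00171) and not in replicate 2 (adjusted p = 0.345), so the site was not called. With both replicates in one Cochran-Mantel-Haenszel test, which treats the replicate as a batch, it was called (adjusted p = 2.76e-04). In the other 7 lines, 12 of 4239 NaCNBH3 reads (0.283%) and 2 of 4061 mock reads were T. The highest single NaCNBH3 library of those lines was at 0.620%, below both NAT10-WT libraries (5.74% and 3.09%). Wildtype, which has its own NAT10, had 0 of 346 NaCNBH3 reads (upper bound 1.06%).

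At the RPL13 cytosine (chr16, position 89562953), T was read in 5 of 127 and 6 of 86 reads in NAT10-WT NaCNBH3 libraries, against 1 of 118 and 0 of 70 in their mock libraries. The summed share was 5.16% (exact interval 2.61% to 9.05%) after NaCNBH3, against 0.532% (0.0135% to 2.93%) in mock. Neither replicate passed Fisher's exact test after adjustment (adjusted p = 0.534 and 0.228), and the Cochran-Mantel-Haenszel adjusted p was 0.0508. In the other 7 lines, 5 of 1916 NaCNBH3 reads (0.261%) and 0 of 1805 mock reads were T. Their highest NaCNBH3 library was at 1.41%, below both NAT10-WT libraries (3.94% and 6.98%). Since both sites were chosen by their NAT10-WT values, the difference between lines is a description with no test, and the intervals cover counting error only.

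**Figure D4:**
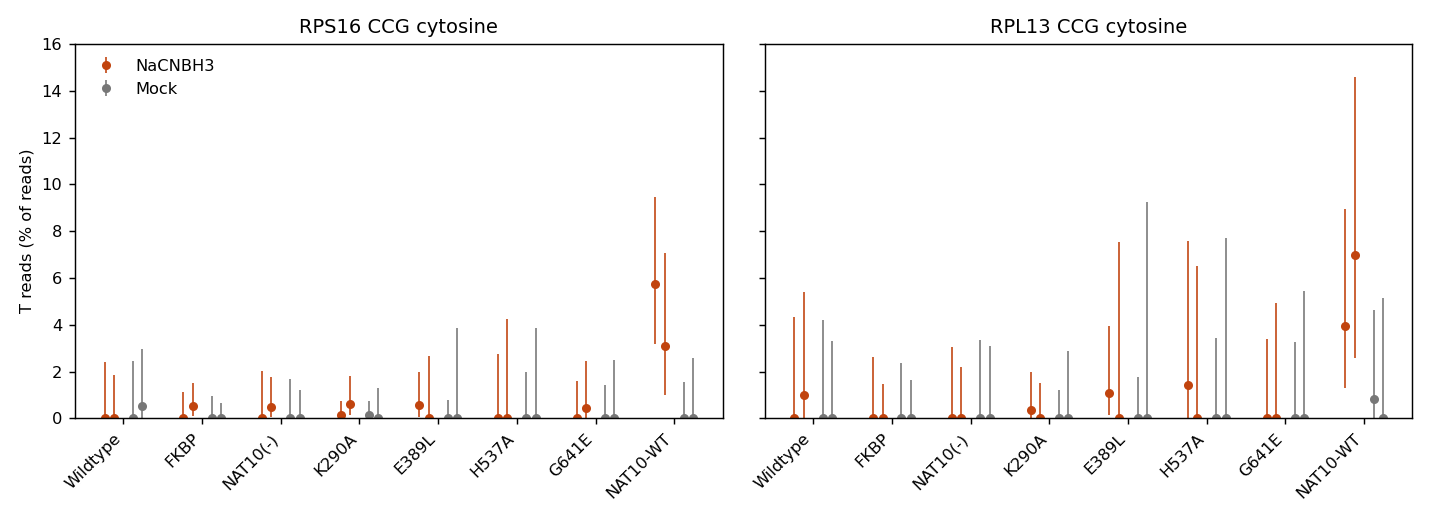
Share of T reads at the CCG cytosines of RPS16 and RPL13 in each library, NaCNBH3 in red and mock in grey, with exact Clopper-Pearson intervals from reads of that library. NAT10-WT NaCNBH3 libraries lie between 3.09% and 6.98% and all other libraries at or below 1.41%.

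Chosen after these values were seen, all listed member cytosines were scanned for over 1% T with at least 2 T reads in both NaCNBH3 libraries of a line and under 1% in both mock libraries. In CCG, 2 of 688 listed cytosines met this in NAT10-WT, those of RPS16 and RPL13, and 0 of 639 to 757 in each of the other 7 lines. Outside CCG, 3 met it in NAT10-WT and 1 to 2 in each of the other lines. With NaCNBH3 and mock exchanged, 0 CCG cytosines met it in each of the 8 lines, and 0 to 2 others.

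The EEF2 and RPL9 cytosines had T reads without NaCNBH3 too, and neither passed the test in both replicates. The EEF2 cytosine (chr19, position 3982969, base 3 of codon 150) was read as T in 75.4% and 88.3% of NAT10-WT NaCNBH3 reads, against 70.4% and 77.5% of mock reads. The RPL9 cytosine (chr4, position 39458911, base 12 of the 5′ untranslated part) was at 13.9% and 13.2% after NaCNBH3, against 8.95% and 10.7% in mock. It was called in replicate 1 alone (adjusted p = 0.0431) and in the Cochran-Mantel-Haenszel test (adjusted p = 0.0323). It lies in a pyrimidine run, given here from GRCh38 with the cytosine in capitals.
RPL9, chr4:39458898-39458922, minus strand: agacgttctttCtttgctgcgtcta
In NAT10(-), where none was called in both replicates, the Cochran-Mantel-Haenszel test called 1 member cytosine higher, in RPS21.

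Pooled over all member cytosines, T reads were more frequent after NaCNBH3 in every RNA sample. Cytosines with over 5% T in the summed mock libraries (23 of them) were left out. The pooled share was 0.0793% to 0.0919% in NaCNBH3 libraries of replicate 1 and 0.109% to 0.127% in those of replicate 2, against 0.0443% to 0.0524% and 0.0433% to 0.0577% in mock libraries of the same replicates. It was higher in 16 of 16 pairs, with a median ratio of 2.05. The NaCNBH3 replicates did not overlap, with all 8 lines higher in replicate 2, so lines are compared within a replicate.

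The difference in member C>T between fractions in NAT10-WT was above that of FKBP in replicate 1 and below it in replicate 2. It was 0.0476 percentage points in replicate 1 of NAT10-WT, where FKBP had 0.0431. In replicate 2 it was 0.0784, where FKBP had 0.0797 and Wildtype, which has its own NAT10, had 0.0807. NAT10-WT was thus the highest of 8 lines in replicate 1 and not in replicate 2. Member cytosines in CCG had 0.0632% to 0.0958% T in NaCNBH3 libraries of replicate 1 and 0.0933% to 0.131% in those of replicate 2, against 0.0289% to 0.0522% in mock libraries, a range that overlaps that of all member cytosines. Cytosines of other mRNAs had 0.0789% to 0.0884% and 0.102% to 0.128% after NaCNBH3 in the same replicates, overlapping the members. The pooled share was thus higher after NaCNBH3 outside CCG and outside the members as well.

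**Figure D5:**
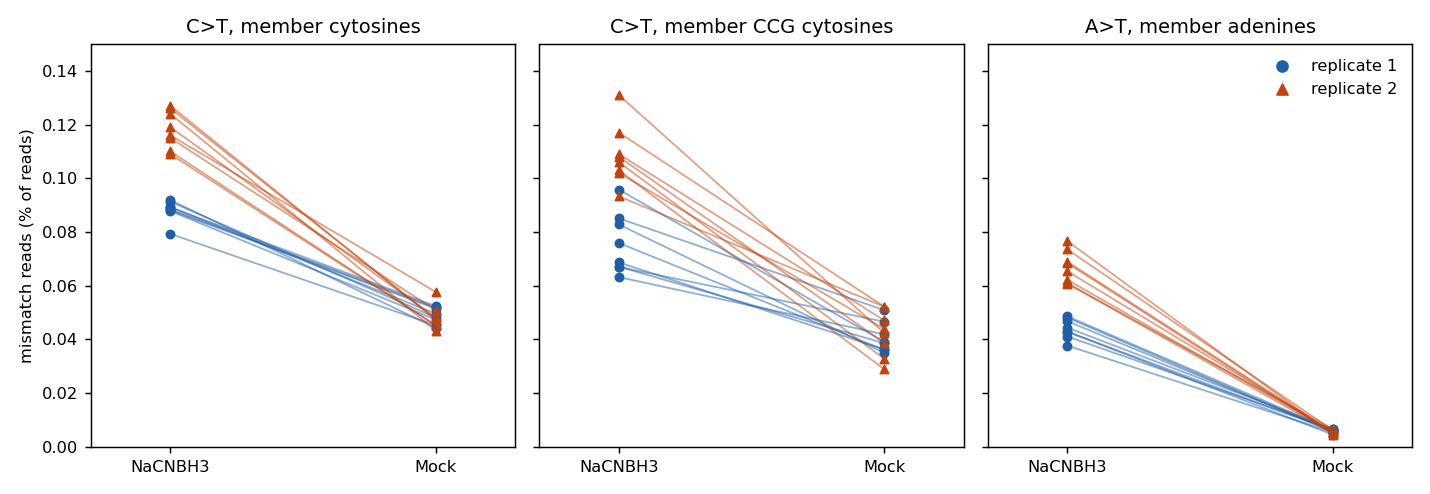
Pooled share of mismatch reads over member positions in each library, for C>T at all cytosines, C>T at CCG cytosines and A>T at adenines, with lines joining the NaCNBH3 and mock fractions of an RNA sample. All 16 pairs are higher after NaCNBH3 in the C>T and A>T panels, and NaCNBH3 libraries of replicate 2 (red triangles) reach 0.127% in the panel of all cytosines.

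The first base of the pyrimidine run carried T reads in both fractions. Of the 51 members with the run, 49 had the first base listed in some library and 23 in all 32. In those 23, T made up 0% to 21.3% of reads (median 0.603%) after NaCNBH3, against 0% to 22.3% (median 0.491%) in mock, while A and G together reached at most 0.112%. EEF1A1, whose run opens with a single C before T, was at the top with 903 T of 4233 NaCNBH3 reads, against 867 of 3886 mock reads. EEF2, with the same length of run and also a single C before T, had 0 of 5770 NaCNBH3 reads and 0 of 5388 mock reads. The first base had 0.431 to 0.868 times the depth of the second, so reads did reach the annotated start of these members.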

How the data were processed

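Per the submitters' processing notes, the authors trimmed reads with cutadapt 4.2, collapsed molecular identifiers with UMI-tools 1.1.5, aligned to GRCh38 with STAR 2.7.9a and piled up bases with SAMtools 1.6. The deposited files hold read counts of each base per position and strand, listing positions with at least 30 reads. How reads matching several places were placed is not given in the sources used here. Here, positions were assigned to exons of the MANE Select (or canonical) transcript on the gene strand, without those inside small RNAs. Depth was the mean over exonic positions, unlisted ones at 15 reads, and was no count of reads, so limma 3.58.1 (R 4.3.3) was used on log2 depth, with both fractions of an RNA averaged, for genes with 25% of exons listed. Base counts were tested with Fisher's exact test (scipy 1.17.1, Python 3.11.15, pandas 2.3.3, numpy 2.4.6). Scripts were tested on simulated data. Per the study's methods, biological replicates came from separate transductions on different days. The separate transductions apply to the lines given a plasmid and not to Wildtype or FKBP. The limma p-values measure only the spread between these samples. Those of Fisher's exact test and the Cochran-Mantel-Haenszel test rest on read counts and measure counting error, not the spread between samples.

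Named were EEF1A1, EEF2, EEF1G, EEF1B2, TPT1, RPSA and the RPLP genes, the 5 highest and 5 lowest members, unlisted members, up to 3 called members per direction or the 2 with the smallest p, and the 5 cytosines with the greatest NAT10-WT difference. Some items this rule names are not reported here. Members and lists were chosen with earlier results of these data known. The replicate number of the labels was used as the batch in the replicate block. Replicate differences correlated between lines at -0.465 to 0.677 (median 0.0409, 13 of 28 pairs above 0.1). Alternatives were other values for unlisted positions, other scalings, filters and transcripts, 1 fraction alone, a replicate block and leaving out each replicate.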

Additional observations from a re-analysis of the deposited data

Results flagged for a closer look

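Changes other than C>T also differed between fractions. At member adenines, T made up 0.0377% to 0.0766% of reads after NaCNBH3, against 0.00454% to 0.00664% in mock, higher in 16 of 16 RNA samples with a median ratio of 9.30. The ratio was 7.51 in replicate 1 and 11.8 in replicate 2. The T reads were spread out, with 62.0% of 15547 listed adenines holding at least 1 and the 100 adenines with most holding 4.93% of them. At the same adenines G was higher after NaCNBH3 in 16 of 16 samples as well, with a median ratio of 1.45. Ratios of the remaining changes at A, C, G and T lay between 0.937 and 1.11. The cause was not tested.

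RPS9 was the only member whose depth differed between the helicase and the GNAT mutants in the test of that difference (log2 change -0.58, limma adjusted p = 0.0103). Both E389L-labelled samples, whose NAT10 reads do not bear out their label, are among the helicase samples.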

How the results depend on the processing

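Positions under 30 reads are unlisted, so the depth of weakly covered genes is a bound: 0% to 58.3% of the genes compared had a mean depth under 20 reads, depending on the library. With 2 RNA samples a line, single samples decide calls. Alternatives using coding sequence only, positions listed in all 32 libraries with ACTB or with the replicate block, and the CCG scan were chosen after seeing the data.

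For K290A (10 members called), unlisted positions at 0 gave 0, positions listed in all libraries 20, ACTB scaling 4, a 50% coverage filter 22, at least 1 listed position in every library in place of that filter 16, positions listed in all libraries with the replicate block 22, and leaving out 1 sample 1 to 4. For Wildtype (1 called), it was 0 with unlisted positions at 0 or 29, ACTB, the 50% filter, mock libraries alone, and positions listed in all libraries with ACTB, and 0 to 1 leaving out 1 sample. For FKBP (0 called), it was 1 with positions listed in all libraries, with or without the replicate block. For helicase against GNAT mutants (1 called), it was 2 with unlisted positions at 29, the 50% filter, the union of exons or the replicate block, 3 with positions listed in all libraries, NaCNBH3 libraries alone or coding sequence, 8 with at least 1 listed position in every library, 0 with mock libraries alone, 5 with positions listed in all libraries and the replicate block, and 1 to 3 leaving out 1 sample. RPS9 itself was not called with mock libraries alone, with unlisted positions at 29 (the 2 calls were RPL12 and RPL26; RPS9 adjusted p = 0.239) or with positions listed in all libraries and ACTB (RPS29 was the 1 call; RPS9 adjusted p = 0.0601). For NaCNBH3 against mock (0 called), it was 1 with positions listed in all libraries and 7 with ACTB as well. Calls in NAT10(-), E389L-labelled, H537A and G641E stayed at 0 in every depth alternative run. The counts in this paragraph are given without the share of all genes called. They show how member calls moved and not whether members exceeded that share.

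With the Cochran-Mantel-Haenszel test as replicate block, 1 member cytosine was called in NAT10(-) and 2 in NAT10-WT, and leaving out a replicate gave 0 to 2 in NAT10-WT. It also called 1 member cytosine lower in Wildtype (RPS19) and 1 in NAT10(-) (RPL38). With all exonic positions, the replicate block changed no depth call of a member but those of RPS7, RPLP1 and RPS29. It changed no other C>T call, while mismatches other than C>T are left out of this count. The median over lines of the covered share, 38.2%, was 21% at 100 reads, 24.2% over the union of exons and 85.3% over coding sequence. The median over lines of the depth ratio, 0.231, was 0.362 over positions listed in all libraries, 0.448 relative to GAPDH and 3.08 relative to the median gene. The pooled C>T difference, with a median of 0.0529 percentage points over RNA samples, was 0 as a median over cytosines with 100 reads. Among 200 settings over 12 called member changes, 108 kept the call, 89 kept the direction only and 3 turned: RPS7 in K290A at -0.09 with positions listed in all libraries and ACTB, and RPL24 at -0.04 and RPLP0 at -0.10 with unlisted positions at 0. The cause was not tested.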
